A study of Drosophila melanogaster with 6 samples.

Results

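DptA, which encodes the antibacterial peptide Diptericin A, had the largest difference of the genes tested on the log2(CPM+1) scale between flies fed glucose-supplemented food and their controls, and it is itself 1 of 39 genes, of 13373 tested, that rose together. These genes were selected on the contrast described here. A member had at least 1 CPM (counts per 1000000 counts of its library) in at least 3 of the 6 libraries, a Pearson correlation with DptA of 0.9 or more on log2(CPM+1), and a mean on the glucose-supplemented food at least 0.7 above the control mean on that log2 scale. Of the genes tested, 350 met the correlation, 108 met the difference and 44 met both, and 5 of these 44 were set aside by symbol because they belong to the cecropin, PGRP and Bomanin families. The rule used both the diets and the order of the libraries, so the values of members are given as a description and without a p-value.

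The flies were virgin males of w1118, a white-eyed laboratory stock, raised to eclosion on cornmeal food. They were then kept for 20 days of adult life at 25°C on one of a pair of diets. HF is unmodified holidic food, a chemically defined medium, and GSF is the same medium after the addition of 50 g/L glucose. RNA was extracted from whole flies, 5 pooled per library, with 3 libraries per diet, and sequenced as bulk RNA. In such samples, more cells of a type and more RNA per cell cannot be told apart, and neither the fat body nor the gut was sampled apart from the rest of the fly. Library totals lay between 51826530 and 66493536 counts, so that 3 counts amounted to between 0.0451 and 0.0579 CPM. Ribosomal RNA accounted for 17.9% to 18.6% of counts in the HF libraries and for 20.6% to 24.5% in the GSF libraries. Nothing in the labels says whether the libraries of a diet came from separate cultures, so p-values for genes outside the module measure only the spread between these libraries.

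Diptericins are products of the Imd pathway, a main antibacterial pathway of the fly. Peptidoglycan of Gram-negative bacteria is bound by receptors of the PGRP family, which signal through the adaptor Imd, the caspase Dredd and the IKK complex to Relish, a transcription factor of the NF-kappaB family. Relish switches on genes for short secreted peptides in the fat body, which releases them to the hemolymph, and locally in epithelia such as the gut. Several PGRP proteins and Pirk hold the pathway back, and the Toll pathway drives a partly overlapping set of peptides.

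The module fell into 15 genes with a difference of 2 or more on the log2(CPM+1) scale and 24 genes with a smaller one. The split at 2 was made after the values were seen. The 15 genes encoded antimicrobial peptides and other small proteins, and their summed level was 172, 360 and 105 CPM in HF libraries 1, 2 and 3 against 7548, 1760 and 3750 CPM in GSF libraries 1, 2 and 3. The 24 genes were more mixed, and their summed level was 929, 1054 and 935 CPM on HF against 1955, 1871 and 1830 CPM on GSF. The first sum ranged widely among libraries of the same diet, whereas the second hardly did. In all 39 members every GSF library was above every HF library, which was also the case for 12.6% of all genes tested. edgeR's quasi-likelihood test (p under 0.01 and FDR under 0.05, two-sided) called 38 of the 39 members higher on GSF, against 2.0% of all genes tested. Both counts follow from the way the members were chosen.

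**Figure D1:**
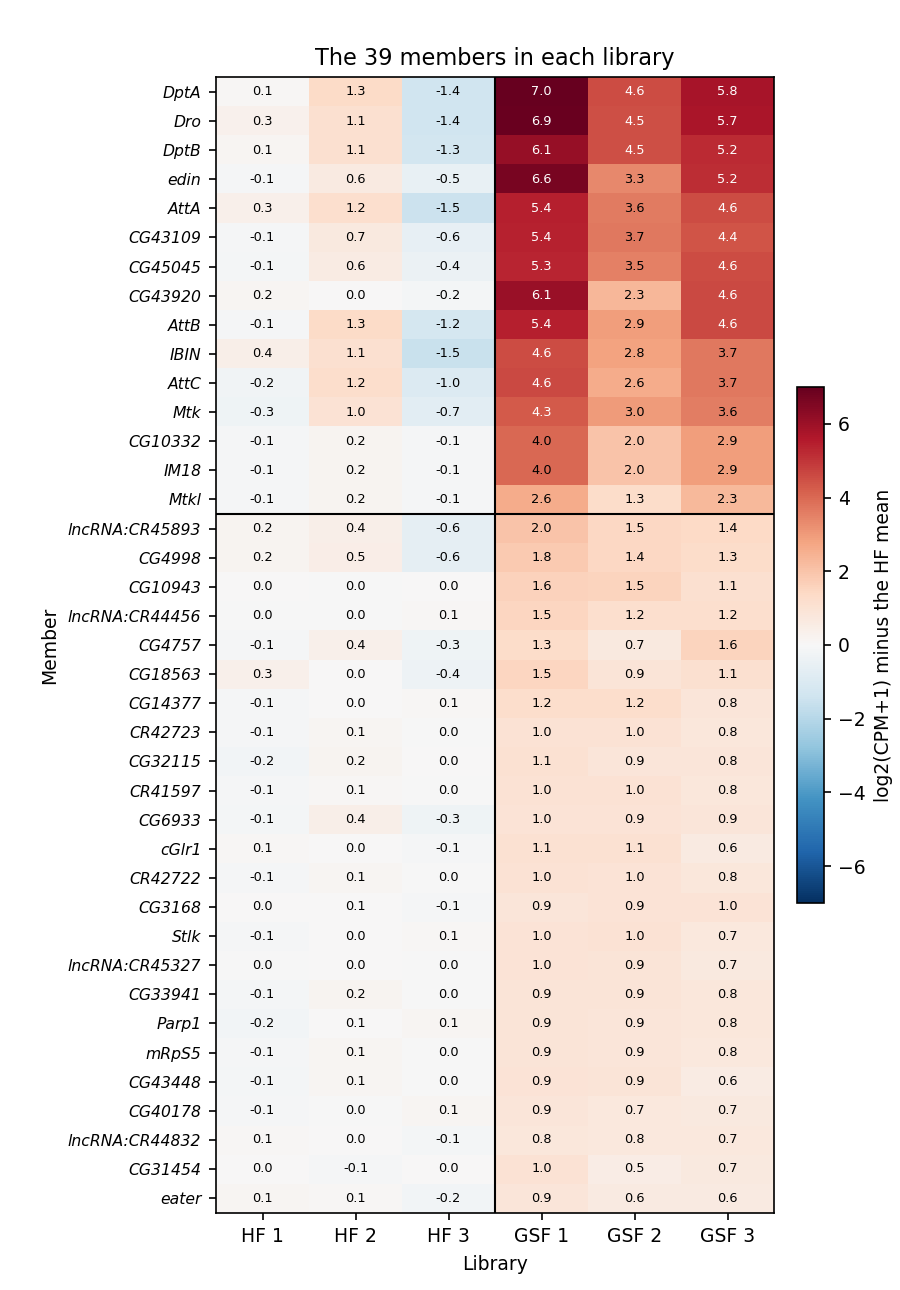
Level of each of the 39 members in each of the 6 libraries, as log2(CPM+1) minus the mean of the 3 HF libraries, with members ordered by their mean difference and a horizontal line under the 15 members with a difference of 2 or more. GSF library 1 is the highest library for each of these 15, and their highest and lowest GSF libraries differ by 2.52-fold to 15.4-fold, against 1.06-fold to 1.82-fold for the genes under the line.

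On the log2(CPM+1) scale, the diptericins and drosocin had the largest differences among the classical antimicrobial peptides. The log2 fold changes of edgeR gave another order, with edin at 6.56, CecA2 at 5.94, Dro at 5.90, DptA at 5.78 and DptB at 5.19. DptA (FBgn0004240, chromosome 2R, 18865765 to 18866260 in BDGP6) had 13.9, 34.8 and 4.33 CPM in HF libraries 1, 2 and 3 and 1822, 337 and 786 CPM in GSF libraries 1, 2 and 3. The lowest GSF library was 9.68-fold above the highest HF library. The mean difference on the log2(CPM+1) scale was 5.79 ± 1.06 (standard error, n = 3 per diet). DptB, the neighbouring diptericin gene, had 12.3, 26.3 and 4.15 CPM on HF and 831, 275 and 459 CPM on GSF. Its difference was 5.26 ± 0.83, and it kept the library order of DptA on both diets. Dro, which encodes the proline-rich antibacterial peptide drosocin, had 6.12, 11.6 and 1.23 CPM on HF and 700, 133 and 308 CPM on GSF, a difference of 5.72 ± 1.01. It followed DptA more closely than any other gene tested, with r = 0.999 over the 6 libraries. The next genes by likeness to DptA were DptB, AttA, Mtk and CG43109, with r from 0.994 to 0.998. These correlations rest on 6 libraries of which 3 are high, and every gene is measured in the same libraries.

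**Figure D2:**
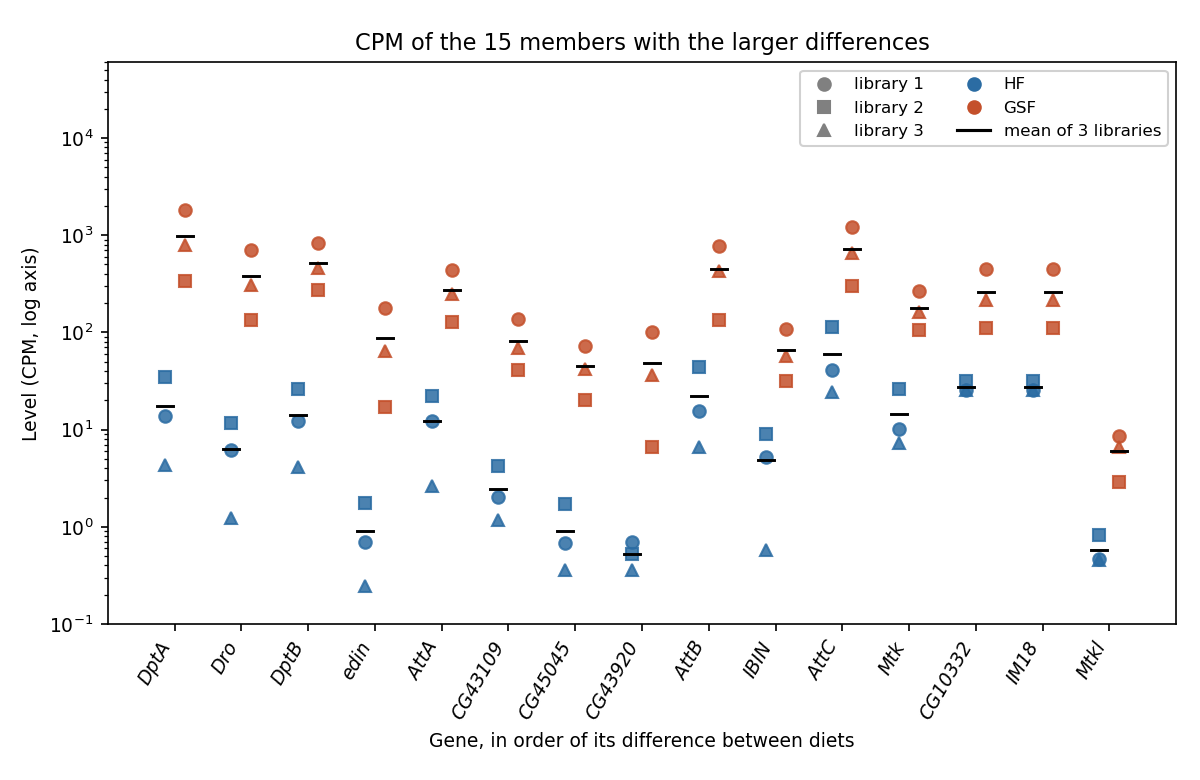
CPM on a log axis for the 15 members with a difference of 2 or more, with 1 point per library (shape marks the library number, colour the diet) and a bar at the mean of each diet. No GSF point lies below an HF point of the same gene, and DptA spans 4.33 to 1822 CPM.

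The attacins are glycine-rich peptides active against Gram-negative bacteria, and 3 of the 4 attacin genes were members. AttA had 12.2, 22.1 and 2.64 CPM on HF and 442, 128 and 248 CPM on GSF, a difference of 4.55 ± 0.94. AttB, its neighbour and near copy, had 15.7, 43.6 and 6.56 CPM on HF and 768, 134 and 430 CPM on GSF, a difference of 4.32 ± 1.05. How reads matching both genes were counted is not given in the sources used here, so the division between AttA and AttB is uncertain. AttC had the highest HF level per kilobase of exon among the 15 genes, 66.4 CPM per kb. Its libraries had 41.0, 114 and 24.3 CPM on HF and 1206, 303 and 652 CPM on GSF, and the difference was 3.65 ± 0.86. The lowest GSF library of AttC was 2.65-fold above the highest HF library, the narrowest gap of the 15 genes.

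Mtk encodes metchnikowin, a peptide with antifungal and antibacterial activity that both Toll and Imd signalling can induce. It had 10.2, 26.4 and 7.21 CPM on HF and 265, 105 and 163 CPM on GSF, a difference of 3.61 ± 0.65. Among the 15 genes Mtk varied least between GSF libraries 1 and 2, by 2.52-fold. Mtkl, the gene for a metchnikowin-like peptide, was at 0.463, 0.817 and 0.459 CPM on HF and at 8.63, 2.90 and 6.58 CPM on GSF. Its difference of 2.07 ± 0.40 was the smallest of the 15, and its fold change of the mean CPM was 10.4, which shows how the added 1 CPM compresses the differences of low genes.

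edin and IBIN are infection-induced genes that encode short proteins. edin (chromosome 3L) was at 0.695, 1.77 and 0.246 CPM on HF and at 178, 17.2 and 64.3 CPM on GSF. The fold change of its mean CPM, 95.7, was the highest of the module, and GSF library 1 was 10.4-fold above GSF library 2. IBIN had 5.19, 8.94 and 0.574 CPM on HF and 108, 31.9 and 57.7 CPM on GSF, a difference of 3.70 ± 0.94. HF libraries 2 and 3 differed by 15.6-fold for IBIN, the widest gap within HF of any member.

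Further members encoded small proteins with little annotation. CG43109, predicted at 57 residues, had 2.01, 4.24 and 1.16 CPM on HF and 136, 41.2 and 68.6 CPM on GSF. It lies beside DptB on the other strand and shares 48 bp of exon with it, and since the strand setting of the counting is not given in the sources used here, reads in that stretch cannot be assigned to either gene. CG45045 (42 residues, chromosome 3R) had 0.675, 1.70 and 0.361 CPM on HF and 72.5, 20.2 and 42.4 CPM on GSF. CG43920 (56 residues) had 0.695, 0.522 and 0.361 CPM on HF and 101, 6.56 and 36.4 CPM on GSF, the widest spread among GSF libraries of any member at 15.4-fold between libraries 1 and 2. IM18, named for an immune-induced molecule of the hemolymph, and CG10332 share 739 bp of exon on the same strand and had equal counts in every library, 25.5, 31.5 and 25.5 CPM on HF and 454, 112 and 214 CPM on GSF. They are therefore a single measurement, and counting each set of overlapping members once leaves 36 members.

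Among the 15 genes, the order of the GSF means per kilobase of exon was DptA with 1980 CPM per kb, DptB with 1162, AttC with 801 and Mtk with 663. AttB and Dro followed with 505 CPM per kb each. On HF the order of the 15 was different, with AttC first at 66.4, Mtk at 54.6, CG10332 and IM18 at 37.2 and DptA at 35.7 CPM per kb. The SDs of neighbours in either order overlap. On HF, the DptA libraries alone ran from 4.33 to 34.8 CPM.

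The libraries of a diet differed in the same way across these genes. DptA was ordered GSF library 1, then 3, then 2, and all 15 genes had that order, as did 2 of the 24 members with smaller differences and 19.7% of all genes tested. On HF, DptA was highest in library 2 and lowest in library 3, and 12 of the 15 genes and 6 of the 24 kept that order, against 21.4% of all genes. CG43920, CG10332 and IM18 were the exceptions among the 15. Both orders together were held by 12 of the 15, by 0 of the 24 and by 2.27% of all genes tested. The correlation in the rule had used these values, so the counts describe the members and test nothing.

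When each diet mean was subtracted, the 14 other genes of the larger group had a median r with DptA of 0.97 (range 0.69 to 0.99). The 24 members with smaller differences had a median of 0.38 (range -0.16 to 0.90), with 4 below 0. All genes tested had a median of 0.07. An r of 0.8 or more was reached by 10 of the 14, by 3 of the 24 and by 4.55% of all genes tested. The correlation in the rule had used these values as well, so they describe the members and test nothing. Stlk, Parp1, CG14377 and CG40178 were the 4 members below 0, and their agreement with DptA over the 6 libraries lay between the diets, not within them. Slopes on DptA were between 0.35 and 0.98 for the 14 genes and between 0.11 and 0.28 for the 24, in log2 units per log2 unit of DptA. The groups were split on the difference between diets, which largely sets the slope, so this separation is no further result.

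**Figure D3:**
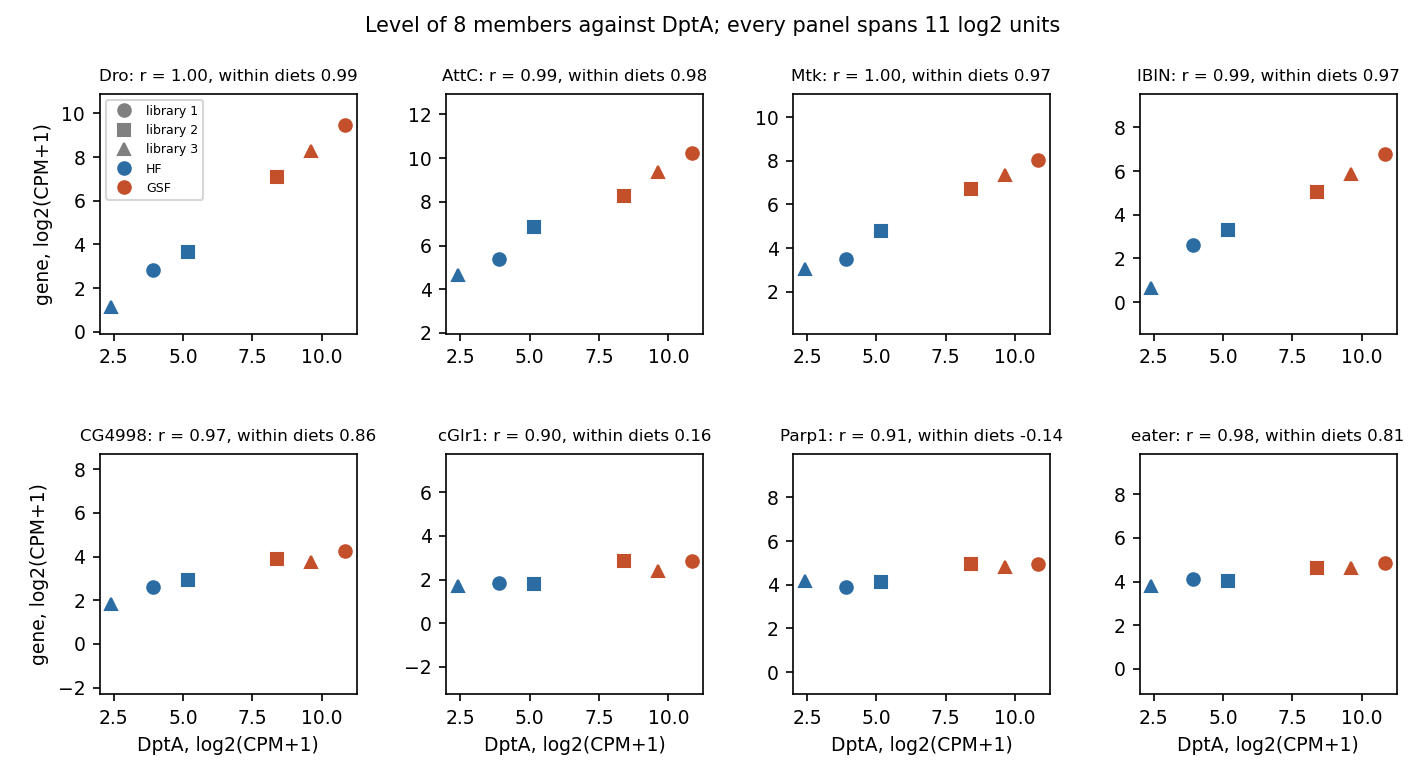
Level of 8 members against the level of DptA, both as log2(CPM+1), with 1 point per library (shape marks the library number, colour the diet) and equal vertical spans. Dro, AttC, Mtk and IBIN climb along DptA through all 6 libraries, while CG4998, cGlr1, Parp1 and eater have shallow slopes.

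**Figure D4:**
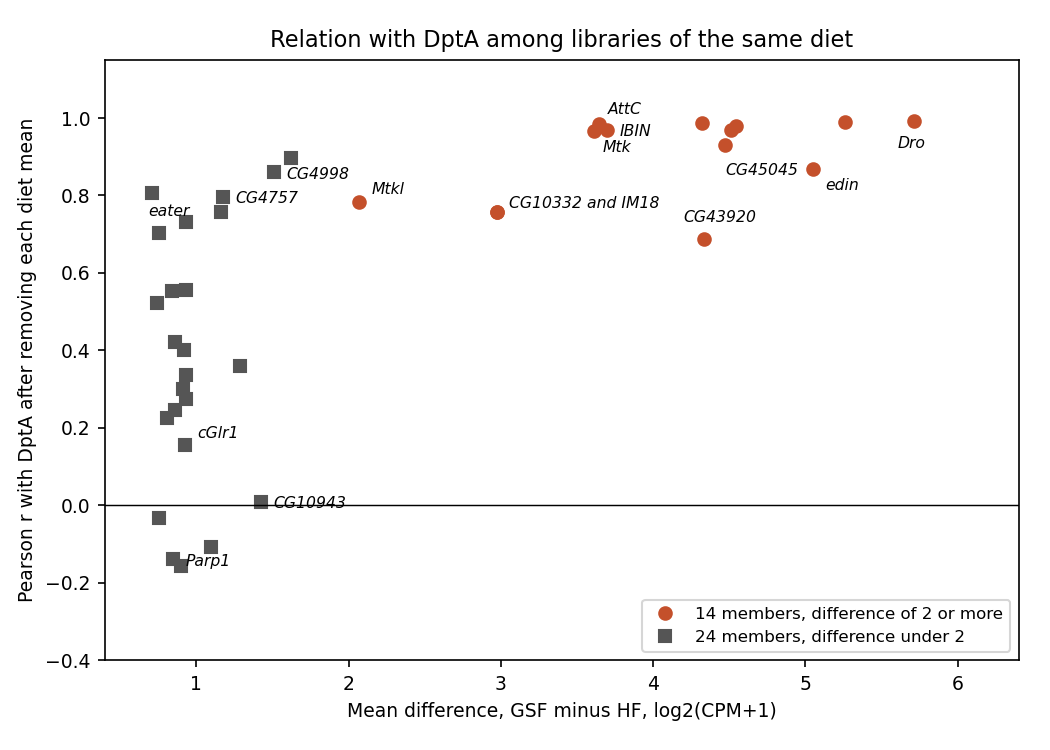
Pearson r with DptA after the mean of each diet was removed, against the mean difference between diets, with 1 point for each of the 38 members other than DptA. The 14 genes with larger differences lie between 0.69 and 0.99, and the 24 others spread from -0.16 to 0.90.

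Of the 24 genes, CG4998 and lncRNA:CR45893 were closest to the peptide genes. CG4998 encodes a large protein that RefSeq lists as a serine protease homolog (SPH66). It had 5.11, 6.49 and 2.49 CPM on HF and 18.1, 13.7 and 12.2 CPM on GSF, a difference of 1.51 ± 0.36 with r = 0.86 within diets. The noncoding lncRNA:CR45893, with a difference of 1.62 ± 0.37, lies wholly in exons of CG4998 over 1681 bp on the same strand, so these reads cannot be told apart. CG18563, also listed as a serine protease homolog (SPH156), had 1.35, 0.887 and 0.426 CPM on HF and 4.19, 2.47 and 2.95 CPM on GSF.

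Among the other protein-coding members, CG4757 had 68.2, 93.9 and 58.3 CPM on HF and 175, 117 and 213 CPM on GSF. Its lowest GSF library was 1.25-fold above its highest HF library, the narrowest gap of the module. CG10943 had 15.6, 14.8 and 15.3 CPM on HF and 47.9, 46.2 and 34.8 CPM on GSF, a difference of 1.42 ± 0.14 with r = 0.01 within diets. Its HF libraries were tight, its GSF libraries ran from 34.8 to 47.9 CPM, and the diets lay far apart. With almost no relation to DptA within diets, CG10943 met the rule through the diet means alone.

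cGlr1 encodes a cGAS-like receptor, an innate sensor of double-stranded RNA. It had 2.62, 2.52 and 2.25 CPM on HF and 6.32, 6.33 and 4.27 CPM on GSF, a difference of 0.92 ± 0.17. eater encodes a phagocytic receptor of hemocytes and had 16.1, 15.5 and 13.1 CPM on HF and 27.9, 23.8 and 23.4 CPM on GSF, a difference of 0.71 ± 0.12. Both genes were clear of overlap by a small margin, 1.63-fold for cGlr1 and 1.45-fold for eater between the lowest GSF and the highest HF library. CG3168, a gene of the Slc22 transporter family, had 173, 175 and 160 CPM on HF and 308, 324 and 329 CPM on GSF.

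Another group lay near centromeres. Parp1, which encodes a poly(ADP-ribose) polymerase, had 13.9, 16.4 and 17.2 CPM on HF and 30.2, 29.7 and 27.6 CPM on GSF. Stlk, for which RefSeq gives the synonym STRADalpha, had 7.20, 8.02 and 8.26 CPM on HF and 16.2, 16.6 and 13.6 CPM on GSF. mRpS5, for a protein of the mitochondrial ribosome, had 159, 183 and 163 CPM on HF and 313, 306 and 285 CPM on GSF. These 3 genes did not share the library order of DptA on either diet. Next to mRpS5 on chromosome 3L lie the annotated pseudogenes CR42722, CR42723 and CR41597, in that order, with 2603 to 2664 bp between each gene and the next. Their HF means were 140 ± 10.5, 145 ± 11.2 and 158 ± 10.7 CPM (SD, n = 3) and their GSF means 265 ± 17.8, 277 ± 19.2 and 302 ± 20.0 CPM, with differences of 0.92 to 0.93. Whether reads could be shared among these adjacent genes was not tested. CG40178, also on 3L, had a difference of 0.76 ± 0.08.

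The remaining 9 members had mean levels of at most 10.1 CPM on GSF. CG14377, CG32115 and CG6933 had differences of 1.10, 0.93 and 0.93, and CG6933 was the one member that the edgeR test did not call. CG33941 on chromosome 4 (0.86), CG43448 (0.80) and CG31454 (0.74) had smaller ones. Of the noncoding RNAs, lncRNA:CR44456 had a difference of 1.29, lncRNA:CR45327 of 0.86 and lncRNA:CR44832 of 0.75. CG14377, lncRNA:CR45327 and CG33941 share 58, 222 and 463 bp of exon with GILT1, Rtf1 and Asator on the other strand, whose mean levels were 89.3, 59.1 and 64.3 CPM, and AttC shares 53 bp with CG4744, so part of their reads may belong to those genes.

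The larger group was short in its transcripts and proteins. The 15 genes had a median exonic length of 449 bp and a median predicted protein of 71 residues (range 41 to 238), against 1767 bp and 417 residues over all genes tested. Proteins under 150 residues were predicted for 12 of the 15 genes, for 2 of the 15 protein-coding members with an annotated protein in the other group, and for 12.1% of all tested genes with a protein. All 15 were protein-coding, whereas the 24 included 4 noncoding RNAs and 3 pseudogenes. On chromosome 2R lay 13 of the 15 genes, against 4 of the 24 and 20.1% of all genes tested. Some of them are neighbours. DptA, DptB and CG43109 form one cluster with 1130 bp between the diptericin genes, and Dro, AttA and AttB another, with 647 and 1007 bp between them. Neighbours of a family do not count as separate draws from the genome, so no test was made of these shares.

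The thresholds cut through a continuous range. Just inside the correlation threshold were cGlr1 (r = 0.902), CG14377 (0.904) and Stlk (0.904), and just outside were Oct-TyrR, an octopamine and tyramine receptor gene (0.896), Atf6, for a transcription factor of the unfolded protein response (0.895), and lncRNA:CR44922 (0.893). Just inside the difference threshold were eater (0.71), CG31454 (0.74) and lncRNA:CR44832 (0.75). Just outside were Ect3 (0.69), Pi3K21B, for a regulatory subunit of PI3-kinase (0.68), and Cals, for a calsyntenin (0.68).

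Some antimicrobial peptide genes missed the module by the correlation threshold, Drs narrowly, or by their symbol. Drs, for the antifungal peptide drosomycin, had 38.4, 68.1 and 35.1 CPM on HF and 572, 69.4 and 178 CPM on GSF, with r = 0.893. AttD, the attacin that lacks a secretion signal, had 21.9, 17.8 and 4.59 CPM on HF and 277, 23.9 and 45.5 CPM on GSF, with r = 0.866. In both genes GSF library 2 was barely above the highest HF library, by 1.02-fold for Drs and 1.09-fold for AttD. In CecA1 (r = 0.838) and Def (r = 0.745) GSF library 2 lay within the range of HF, at 30.0 CPM against 21.8 to 35.8 for CecA1 and at 2.42 CPM against 0.754 to 4.83 for Def. For each of these 4 genes, as for the 15, GSF library 1 was the highest.

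The genes dropped by symbol were CecC (difference 2.45, r = 0.970) and CecB (1.06, 0.962), which encode cecropins, PGRP-SB1 (1.57, 0.974), a secreted peptidoglycan recognition protein, PGRP-LB (0.87, 0.941), an amidase that degrades peptidoglycan and restrains Imd signalling, and BomS1 (0.82, 0.934), a Bomanin of the Toll response. PGRP-LB had 31.7, 33.0 and 27.1 CPM on HF and 81.6, 43.4 and 50.6 CPM on GSF, again highest in GSF library 1.

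Gene lists for the immune pathways were then compared over all genes, with members counted apart. Of the antimicrobial peptide list, 8 of 15 genes were members. Of the other 7, the quasi-likelihood test of edgeR, adjusted by Benjamini-Hochberg, called 3 higher on GSF and 0 lower, CecA2, CecB and CecC, with log2 fold changes of 5.94 ± 1.30, 2.55 ± 0.56 and 3.27 ± 0.61 (standard error), and 6 had an unadjusted p under 0.05. These calls are not independent of the way the genes were chosen or filtered. CecB and CecC met the correlation and the difference of the module and left it only by symbol, and CecA2 and CecB reached 1 CPM on GSF alone, so that they had to differ to be tested. They were at low levels, from 0.0820 to 0.365 CPM on HF and from 1.05 to 28.5 CPM on GSF for CecA2, and CecB had 2 counts in HF library 3. The median log2 fold change of the 7 was 2.55 against 0.0083 over all genes tested. CecA2 and CecB were not tested without a GSF library, since they then fell under the filter. The call of CecC was lost without HF replicate 1 or 2 and without GSF replicate 1 or 3, at log2 fold changes between 2.67 and 3.76. CecA2 lost its call without any one of the HF libraries (5.54 to 6.72), and CecB without HF replicate 1 or 2 (3.16 and 2.73).

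The signalling genes upstream of these peptides had small fold changes. Of 24 genes for Imd signalling and its brakes, edgeR's quasi-likelihood test called 0 in either direction, 6 had an unadjusted p under 0.05, and the median log2 fold change was 0.07. DESeq2 called 2 higher and edgeR's likelihood ratio test called 1. With the replicate number as a block, 3 were higher, PGRP-LB (log2 fold change 0.92, adjusted p = 0.0213 with the block and 0.0519 without), PGRP-LF (0.44, 0.0400 and 0.141), a receptor that restrains the pathway, and IKKbeta (0.23, 0.0445 and 0.116), a kinase subunit. PGRP-LB met the correlation and the difference of the module and left it only by symbol, so its test is not independent of the rule. Rel, the gene for Relish, had 192, 211 and 150 CPM on HF and 258, 223 and 212 CPM on GSF, and its log2 fold change was 0.32 ± 0.13 (standard error) at an adjusted p = 0.222. pirk had 19.7, 26.2 and 16.5 CPM on HF and 40.4, 26.4 and 27.2 CPM on GSF, and its log2 fold change was 0.58 at an adjusted p = 0.165. imd and PGRP-LC had log2 fold changes of 0.06 and 0.16, with adjusted p = 0.859 and 0.388. Rel, pirk, imd and PGRP-LC were singled out after their values were seen.

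**Figure D5:**
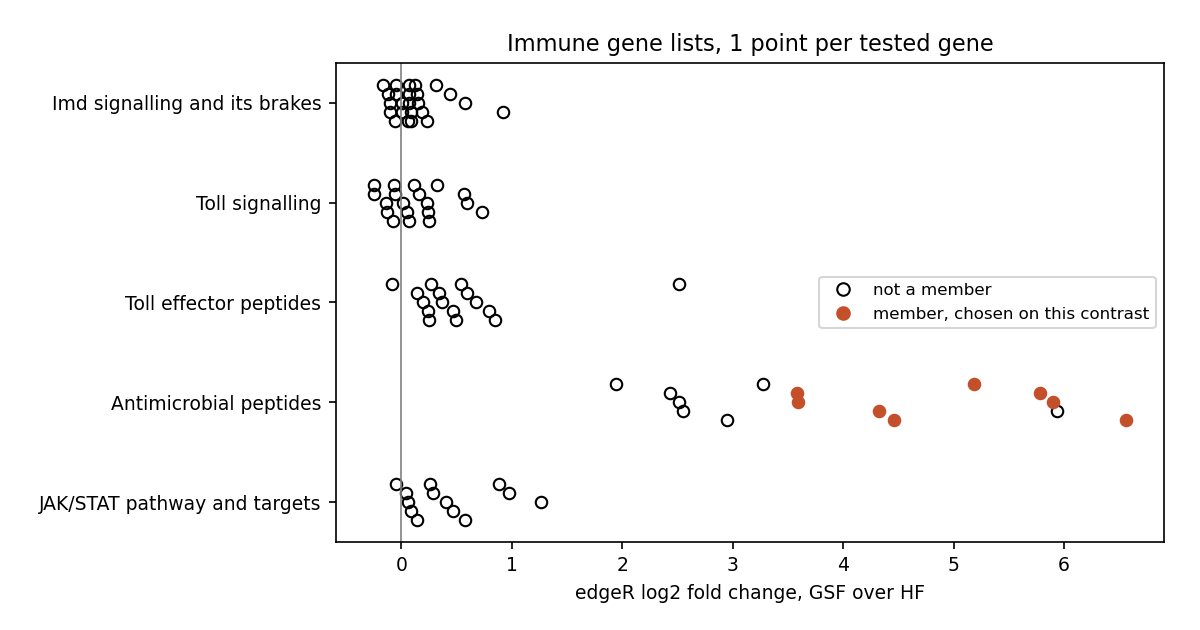
edgeR log2 fold change of GSF over HF for each tested gene of 5 immune gene lists, with members of the module filled and other genes open. The Imd and Toll signalling genes lie between -0.25 and 0.92, while the antimicrobial peptide genes outside the module lie between 1.94 and 5.94.

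Of 19 Toll signalling genes, 0 were called by edgeR's quasi-likelihood test, 7 had an unadjusted p under 0.05, DESeq2 called 3 higher and 2 lower, and the median log2 fold change was 0.07. The replicate block also gave 3 higher (spz, PGRP-SA and Pli) and 2 lower (modSP and GNBP3). The Toll effector peptides had larger fold changes. Of 16 genes tested, among them the Bomanins and Drs, 15 had a log2 fold change above 0 and the median was 0.42, yet 0 were called by edgeR's quasi-likelihood test. In this list 9 had an unadjusted p under 0.05, DESeq2 called 7 higher and the likelihood ratio test called 6. The replicate block called BomS2, BomS4 and BomT2 higher. BomS1, also in this list, met the correlation and the difference of the module and left it only by symbol, so its part in these counts is not independent of the rule. Of the 2 drosomycin-like genes tested, 0 were called, 1 had an unadjusted p under 0.05, and Drsl4 was lower with DESeq2 and with the replicate block. Of 13 genes of the JAK/STAT pathway and its targets, which serve cytokine signalling in stress and wounding, 0 were called by edgeR or DESeq2, 2 had an unadjusted p under 0.05, 2 (upd3 and Socs36E) were higher with the replicate block, and the median was 0.29.

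Markers of cell types were measured in the same libraries, beside a background of 2.0% of genes called higher and 3.14% called lower. The sum of 7 tested fat body markers was between 4422 and 4950 CPM on HF and between 3432 and 4144 CPM on GSF, with FASN1 and Lsd-1 called lower, and Lsp2 as well with the replicate block. FASN1 and apolpp carry much of that sum. FASN1 had a log2 fold change of -0.57 and apolpp, which was not called, of 0.30. In this list 2 of 7 log2 fold changes were above 0, with a median of -0.26. The sum of 10 midgut markers was 4110 to 5258 CPM on HF and 3025 to 3800 CPM on GSF, with mesh called higher and Mal-A1 lower. The abundant digestive enzyme genes alphaTry and Mal-A1 carry much of that sum, and over the list 5 of 10 log2 fold changes were above 0, with a median of 0.04. The replicate block called 4 midgut markers higher and 3 lower. Hemocyte markers, of which eater is itself a member, summed to 573 to 871 CPM on HF and 715 to 851 CPM on GSF, and 0 of the other 6 were called by edgeR or DESeq2, with 0 at an unadjusted p under 0.05. The 6 accessory gland markers had 1 called lower (Dup99B), 3 lower with the replicate block, and sums of 772 to 1070 and 746 to 787 CPM, and the 6 testis markers had 0 called by either tool, 0 at an unadjusted p under 0.05, and sums of 849 to 1190 and 948 to 1113 CPM. The 5 neuron markers had 0 called by edgeR, 4 at an unadjusted p under 0.05, 1 higher with DESeq2, 3 higher with the replicate block (nSyb, Syt1 and para), and sums of 300 to 325 and 339 to 400 CPM. None of the markers tested was at 0 in every library. The part of tissue makeup in the module's values was not tested. With library totals taken without ribosomal RNA, all 39 members met the rule again. The ribosomal share was higher in every GSF library, so these totals raise GSF values against HF. They could not take a member under the difference threshold, and the count is no check on the part of ribosomal RNA.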

How the data were processed

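RNA from whole w1118 males was sequenced in 6 libraries, 3 on HF and 3 on GSF. The authors trimmed paired-end reads (Trimmomatic), aligned them by HISAT2 2.1.0, used SAMtools 1.8 to convert the output and obtained gene-level counts from Rsubread. The deposited files hold the authors' raw counts for 17737 FlyBase genes per library, before normalization. Their comparison table (fold change, mean level, p-value and FDR) was used only for the names of mRpS5 and CG40178, which the reference tables do not pair with their identifiers. A symbol was found for 17598 of the identifiers. Coordinates come from Ensembl (BDGP6.54) and, for these 2 genes, from RefSeq on the same assembly.

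CPM was computed on library totals, and genes with 1 CPM or more in at least 3 libraries were tested (13373). The diets were compared in R 4.3.3 with edgeR 4.0.16 (TMM, quasi-likelihood test, two-sided, Benjamini-Hochberg over all genes tested), and a call needed p under 0.01 and FDR under 0.05. edgeR's likelihood ratio test, DESeq2 1.42.0, no filter, other scalings and thresholds, and fits without each library were alternatives. Totals without ribosomal RNA, and overlapping members counted once, were alternatives chosen after seeing the data. Correlations, differences and tables used Python 3.11.15 with pandas 2.3.3. The tests and the rule were tested on simulated data.

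Named genes are all members, the 3 genes on each side of each threshold, genes dropped by symbol, non-member list genes that were called, and the 5 genes most like DptA. Other names were picked with values known. The 12 lists (6 of immune pathways, 6 of cell type markers) hold 139 entries, of which 138 matched. The members and lists were chosen with earlier results of these data known.

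Each diet has replicates 1 to 3. Same-numbered libraries deviated together from their diet means across genes (r = 0.188, 0.247 and 0.476). Libraries of different numbers had r from -0.309 to 0.115. On the evidence of these counts alone, the numbers were taken to pair the libraries in an alternative fit with a replicate block. The main fit used diet only. DptA itself was highest of the HF libraries in library 2 and lowest of the GSF libraries in library 2.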

Additional observations from a re-analysis of the deposited data

How the results depend on the processing

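The module of 39 genes held 60 genes at r of 0.85 or more and 23 at 0.95 or more, and 95 with a difference of 0.5 or more and 22 with 1 or more. With a library left out it held 30 genes (without GSF replicate 1) to 76 (without HF replicate 3), and 62 without GSF replicate 3, and 26 of the 39 were members in all 6 of these fits. CG43920, Mtkl, lncRNA:CR45327 and CG43448 reached 1 CPM only on GSF and so dropped out whenever a GSF library was left out. Other scalings, pseudocounts and filters gave 26 to 58 members, and 58 came from totals without ribosomal RNA, a choice made after seeing the data. Spearman's correlation gave 29 (21 shared) and AttC as the reference gene 35 (32 shared). Over all genes, 267 were called higher and 420 lower. DESeq2 called 604 and 824, the likelihood ratio test 470 higher, and the replicate block 910 and 872, while with a library left out 48 to 224 and 65 to 293 were called. Of members, 38 were called, and 19 (without GSF replicate 1) to 38 with a library left out, with 20 without HF replicate 1. Of the 15 members with larger differences, only CG43109 and CG45045 kept their call without HF replicate 1. DptA, Dro, AttA, AttB, AttC, Mtk and IBIN also lost theirs without GSF replicate 1. The log2 fold change of DptA was 5.64 without HF replicate 1 and 5.01 without GSF replicate 1. CG6933 was called by DESeq2, the likelihood ratio test and the paired fit with the replicate block. Of pathway genes outside the module, 3 were called higher and 0 lower. DESeq2 called 15 and 3, the likelihood ratio test 12 higher, the replicate block 14 and 3, and fits without a library 0 to 5 higher. The cause of these changes was not tested. No fold change of the 39 members, CecA2, CecB or CecC changed direction where a fit gave a value, and other named genes were not compared one by one. The alternatives on promoter motifs were not run. Depth allows no statement on genes under about 3 counts per library.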

Other observations

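The members near centromeres prompted a look at position over all genes, chosen after the values were seen. Chromosome 4, the small chromosome that is largely heterochromatic, had 96 tested genes, of which edgeR's quasi-likelihood test called 36 higher on GSF (37.5%) and 0 lower, against 2.0% and 3.14% of all genes tested. Their median log2 fold change was 0.34, and 88 of the 96 were above 0. In a window of 5 Mb from the gene nearest the centromere, 26 of 49 genes on 2R and 18 of 61 on 3L were called higher and 0 lower on either, with medians of 0.42 and 0.21. The same window on 2L had 4 of 474 called higher, on 3R 6 of 267 and on X 5 of 395, with medians between -0.01 and 0.02. These windows of equal length hold unlike numbers of genes, and whether they hold the same kind of sequence was not examined. The Y chromosome had 1 of 31 tested genes called higher and 0 lower. Its median was 0.25, 26 of the 31 were above 0, and the replicate block called 13 higher. Chromosome 4 and the windows of 2R and 3L were then pooled, a choice made because of their many calls. Of the 24 members with smaller differences, 7 lay there, as did 0 of the 15 members with larger differences. So did 206 of the 13373 genes tested and 80 of the 267 called higher. The windows of 2L, 3R and X, with 474, 267 and 395 tested genes, were left out of this pool. They held 0, 1 (Parp1) and 0 members.

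Counts on chromosome 4 fell to 6 higher without HF replicate 1, GSF replicate 1 or GSF replicate 2, to 9 without GSF replicate 3 and to 19 without HF replicate 2 or 3, and rose to 53 with DESeq2 and 64 with the replicate block. In the 2R window they lay between 5 (without HF replicate 1 or GSF replicate 1) and 22 (without HF replicate 2), and in the 3L window between 9 and 17, with a library left out. The share of ribosomal RNA in the counts was also higher in every GSF library. Within GSF it was highest in library 3 (24.5%), where mRpS5, Stlk and CR42722 were lowest. Members outside these regions, such as CG10943, cGlr1 and CG14377, were also lowest there. Within HF the share was lowest in library 1 (17.9%), and mRpS5, Stlk and CR42722 were lowest in that library too. These genes were picked with values known. The part of ribosomal RNA in the counts of called genes was not tested.

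A mirror of the module, with r of -0.9 or less and a difference of -0.7 or less, held 57 genes.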
